A study of Mus musculus with 4 samples.

Results

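The genes of cholesterol synthesis, sensing, transport and efflux were read in fibro-adipogenic progenitors (FAPs), the stromal progenitors of skeletal muscle, with and without the surface peptidase DPPIV. The group was a list of 31 gene symbols, namely 17 enzymes of synthesis and 14 genes that sense, move, store or export the sterol, taken by name from a count table of 24421 symbols. All 31 were in the table, and all 31 were among the 11588 genes tested, which are those with at least 2 CPM, counts scaled to a fixed library size, in at least 2 libraries.

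Cells make cholesterol from acetyl-CoA through mevalonate, farnesyl pyrophosphate, squalene and lanosterol. When sterol in the endoplasmic reticulum is low, SCAP escorts SREBP2 to the Golgi, where it is cleaved, and its released part switches on the genes of synthesis and uptake. When sterol is plentiful, INSIG1 holds SCAP back, and oxysterols activate the liver X receptors (LXRs), which switch on genes of cholesterol export. Stromal cells also make apolipoprotein E, which carries cholesterol outside the cell.

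FAPs were sorted from the muscle of 2 wild-type mice as live cells lacking CD31 and CD45 and carrying Sca1, and each mouse gave 1 DPPIV- and 1 DPPIV+ library, so that n = 2 mice. Mouse 1 is the animal with the lower number in its label, and mouse 2 the other. Both had received a CSF1R inhibitor, which depletes macrophages, for 3 weeks and then a regular diet for 3 days, and no library from an untreated mouse was analysed here, so that all values below belong to that state. The labels name the tibialis anterior as the tissue while their protocol describes both hindlimbs, and they give neither the strain nor the age of these 2 animals, the study having used adult mice.

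Each library held 18240110 to 20879405 reads counted on genes, at which depth 3 reads equal 0.143 to 0.167 CPM. The listed genes took 0.540% to 0.616% of the reads of a library. Dpp4, which encodes the sorted protein, had 89.8 and 39.7 CPM in DPPIV- FAPs (mouse 1, then mouse 2) and 728 and 575 CPM in DPPIV+ FAPs. The FAP marker Pdgfra lay between 1159 and 1657 CPM in all libraries, whereas the lists of 3 satellite cell and 4 adipocyte markers summed to at most 1.22 CPM in any library. Since RNA was measured in bulk, fewer cells of one kind and less RNA per cell cannot be told apart.

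Lrp1 had the highest level of the members in both cell types, followed by Apoe in DPPIV- and by Npc2 in DPPIV+ FAPs. Levels between genes are compared here as CPM per kilobase of exon, the mean of both mice. Lrp1, a large endocytic receptor that takes up apolipoprotein E, had 251 CPM per kilobase in DPPIV- and 252 in DPPIV+ FAPs. Apoe had 101 and 36.0 CPM per kilobase in the same order. Npc2, a carrier of cholesterol in the lysosome, had 40.1 in DPPIV- and 45.0 in DPPIV+ FAPs. The regulators Srebf2 and Insig1 followed at 19.3 and 19.2 CPM per kilobase in DPPIV- FAPs. The enzymes of synthesis were lower, from 0.491 CPM per kilobase for Tm7sf2 to 15.1 for Ebp in DPPIV- FAPs.

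Between DPPIV+ and DPPIV- FAPs, 7 of the 31 genes were higher in DPPIV+ cells, 5 were lower and 19 did not pass the threshold of 0.05 on the adjusted p (quasi-likelihood F test of edgeR with mouse in the model, Benjamini-Hochberg adjusted over all genes tested; SE below is the standard error of a log2 value). Of all genes tested, 15.9% were higher and 17.2% lower in the same test. DESeq2's Wald test called 1 member higher, Abca1, and 2 lower, Apoe and Abcg1, beside 7.97% of all genes higher and 8.59% lower. The median log2 fold change of the members was 0.08, against -0.00 over all genes, and it was -0.02 in mouse 1 alone and 0.20 in mouse 2 alone. The log2 ratio had the same sign in both mice for 18 of the 31 members, against 8447 of all genes tested. The calls fell unevenly over the list. Among the 17 enzymes 1 was higher and 0 were lower, whereas among the 14 other genes 6 were higher and 5 lower. Standard errors were larger for several enzymes with fewer reads, so that like changes were not called alike. Mvk and Nsdhl, both at a log2 fold change of 0.20 (SE 0.13 and 0.12), were not called. Srebf2, also at 0.20 (SE 0.07), was called.

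**Figure D1:**
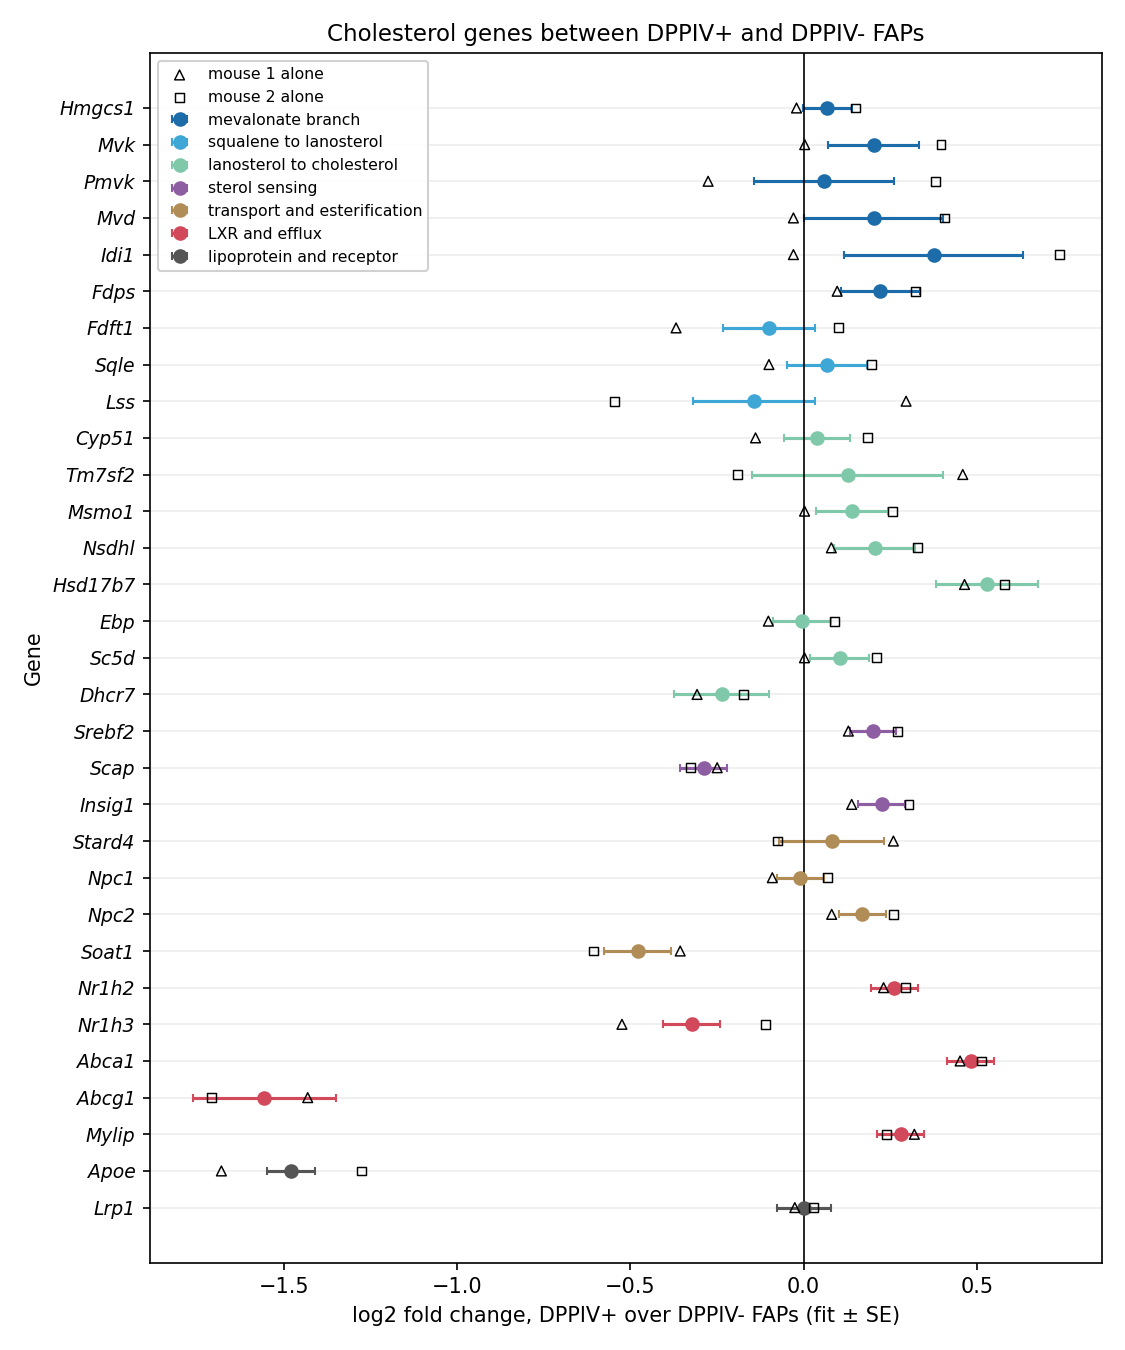
Log2 fold change of each of the 31 genes between DPPIV+ and DPPIV- FAPs (horizontal axis), in order of role. Coloured points are the fitted values with their standard errors, triangles are mouse 1 alone and squares are mouse 2 alone. Apoe and Abcg1 lie near -1.5, and the enzymes of synthesis lie between -0.24 and 0.53.

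Apoe had the smallest adjusted p of the members. It lies on chromosome 7 from 19696109 to 19699188 on the minus strand (ENSMUSG00000002985.16, GRCm38). Its level was 251 CPM in the DPPIV- FAPs of mouse 1 and 183 CPM in those of mouse 2, and 78.4 and 75.5 CPM in DPPIV+ FAPs. Both DPPIV- libraries thus stood above both DPPIV+ libraries, and the difference between the mice was seen in the DPPIV- libraries. The log2 fold change was -1.48 (SE 0.07, adjusted p = 7.67e-100 in edgeR and 9.19e-32 in DESeq2), a level in DPPIV+ FAPs of 0.359 times that in DPPIV- FAPs. In the single mice the log2 ratio was -1.68 and -1.27. Lrp1, its receptor, did not pass the threshold, with 4220 and 4671 CPM in DPPIV- and 4147 and 4768 CPM in DPPIV+ FAPs and a log2 fold change of 0.00 (SE 0.08).

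The genes of the LXR arm all passed the threshold, 3 upward and 2 downward. Abcg1, a transporter that passes cholesterol to high-density lipoprotein, lies on chromosome 17 from 31057675 to 31117988 on the plus strand (ENSMUSG00000024030.7). It had 9.89 and 8.08 CPM in DPPIV- FAPs (mouse 1, then mouse 2) and 3.67 and 2.47 CPM in DPPIV+ FAPs, from 45 to 207 reads a library. The groups did not overlap, and the log2 fold change was -1.56 (SE 0.21, adjusted p = 4.59e-13 in edgeR and 8.41e-05 in DESeq2), with -1.43 in mouse 1 and -1.71 in mouse 2.

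Abca1, the transporter that loads cholesterol onto lipid-poor apolipoproteins, went the other way. It lies on chromosome 4 from 53030787 to 53159895 on the minus strand (ENSMUSG00000015243.4). Its level was 150 and 113 CPM in DPPIV- FAPs and 206 and 162 CPM in DPPIV+ FAPs, mouse 1 first. Both DPPIV+ libraries were above both DPPIV- libraries, and within each cell type mouse 1 was the higher. The log2 fold change was 0.48 (SE 0.07, adjusted p = 4.74e-12 in edgeR and 3.65e-05 in DESeq2), with 0.45 and 0.51 in the single mice. Without mouse in the model its adjusted p in edgeR was 0.0837.

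The receptors themselves moved in opposite directions. Nr1h2, which encodes LXR beta, had 63.7 and 60.4 CPM in DPPIV- and 74.7 and 74.0 CPM in DPPIV+ FAPs, for a log2 fold change of 0.26 (SE 0.07, adjusted p = 4.90e-04 in edgeR). Nr1h3, which encodes LXR alpha, had 46.4 and 35.02 CPM in DPPIV- and 32.3 and 32.5 CPM in DPPIV+ FAPs, for a log2 fold change of -0.32 (SE 0.08, adjusted p = 4.51e-04 in edgeR). The difference in Nr1h3 rested mainly on mouse 1, with a log2 ratio of -0.52 there and -0.11 in mouse 2, while Nr1h2 gave 0.23 and 0.29. Mylip, an LXR target whose product marks lipoprotein receptors for degradation, had 60.2 and 53.2 CPM in DPPIV- and 75.1 and 62.8 CPM in DPPIV+ cells. Its log2 fold change was 0.28 (SE 0.07, adjusted p = 2.06e-04 in edgeR), with 0.32 in mouse 1 and 0.24 in mouse 2. In DESeq2 the adjusted p of these 3 genes was 0.173, 0.249 and 0.148.

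Soat1, the enzyme that esterifies cholesterol for storage in droplets, was lower in DPPIV+ FAPs. It had 28.4 and 29.7 CPM in DPPIV- and 22.2 and 19.5 CPM in DPPIV+ FAPs, and the groups did not overlap. The log2 fold change was -0.48 (SE 0.10, adjusted p = 5.03e-06 in edgeR and 0.0547 in DESeq2), with -0.36 in mouse 1 and -0.61 in mouse 2. Of the carriers inside the cell, Npc2 was higher in DPPIV+ FAPs, at 234 and 202 CPM in DPPIV- and 248 and 241 CPM in DPPIV+ cells. Its log2 fold change of 0.17 (SE 0.07) was just inside the threshold, with an adjusted p of 0.0366 in edgeR and 0.341 in DESeq2, and its log2 ratio was 0.08 in mouse 1 and 0.26 in mouse 2. Its membrane partner Npc1 had 62.8 to 74.6 CPM over the libraries and a log2 fold change of -0.01 (SE 0.07). Stard4, a soluble sterol carrier, had 7.98 to 12.0 CPM and a log2 fold change of 0.08 (SE 0.15). Neither passed the threshold.

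All 3 genes of sterol sensing passed the threshold in edgeR, in both directions and by less than 1.5-fold, and none of them did in DESeq2. Scap, the escort of SREBP2, had 68.7 and 75.9 CPM in DPPIV- and 57.8 and 60.6 CPM in DPPIV+ FAPs, for a log2 fold change of -0.29 (SE 0.07, adjusted p = 1.18e-04 in edgeR and 0.130 in DESeq2). Its log2 ratio was -0.25 in mouse 1 and -0.33 in mouse 2. Srebf2, which encodes SREBP2, moved upward and had 133 and 144 CPM in DPPIV- and 146 and 174 CPM in DPPIV+ cells. Its log2 fold change was 0.20 (SE 0.07, adjusted p = 0.00952 in edgeR and 0.247 in DESeq2), with 0.13 and 0.27 in the single mice. Insig1, the anchor that is itself a target of SREBP2, had 51.8 and 67.1 CPM in DPPIV- and 56.98 and 82.9 CPM in DPPIV+ FAPs. Here the cell types overlapped, since mouse 2 was above mouse 1 in both, and the log2 fold change was 0.23 (SE 0.07, adjusted p = 0.00393 in edgeR and 0.336 in DESeq2), with 0.14 and 0.30 in the single mice.

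**Figure D2:**
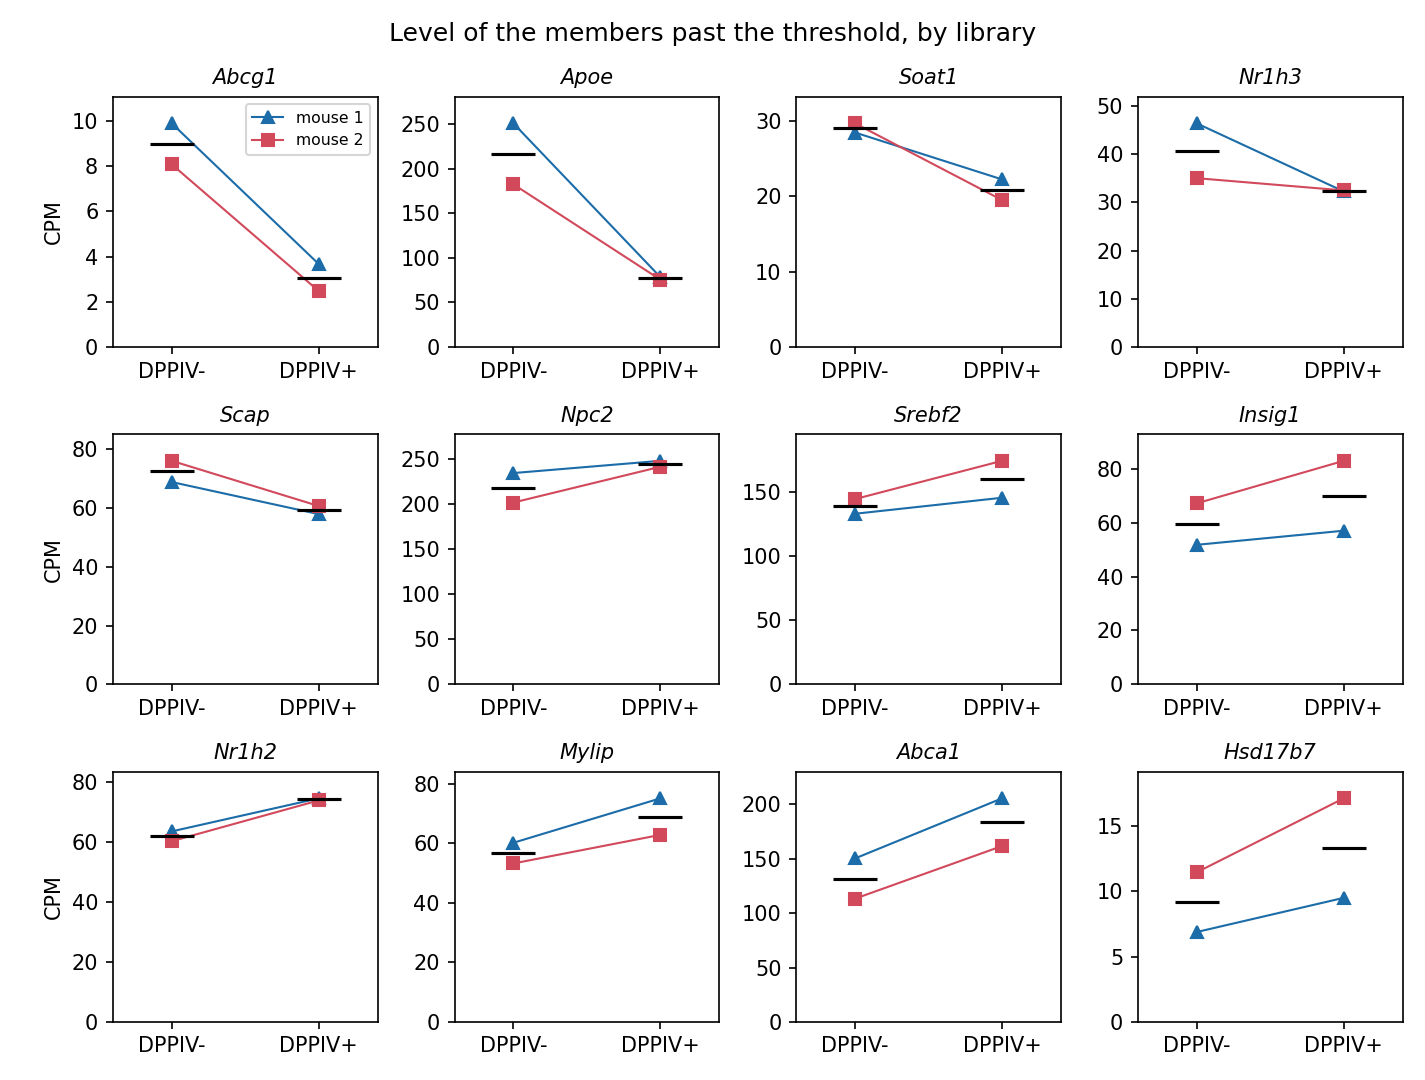
Level in CPM (vertical axes, from 0) of the 12 genes past the threshold in edgeR, in DPPIV- and DPPIV+ FAPs, in order of their log2 fold change. Lines join the libraries of a mouse and black bars are means of both mice; Apoe fell from 251 and 183 CPM to 78.4 and 75.5 CPM, while in Insig1 and Hsd17b7 the mice lie farther apart than the cell types.

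The enzymes of synthesis were close to level between the cell types. Summed over all 17, mouse 1 had 260 CPM in DPPIV- and 255 CPM in DPPIV+ FAPs, and mouse 2 had 316 and 361 CPM. The sum was thus slightly lower in the DPPIV+ FAPs of mouse 1 and higher in those of mouse 2, and 7 of the 17 enzymes had the same sign in both mice. Their median log2 fold change was 0.10. The count of 0 lower enzymes was also 0 at an unadjusted p under 0.05 in edgeR. At its adjusted p, DESeq2 called 0 enzymes lower and 0 higher.

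The enzyme that passed the threshold was Hsd17b7, a 3-ketosteroid reductase that acts in removing the methyl groups of lanosterol. Its level was 6.88 and 11.5 CPM in DPPIV- and 9.497 and 17.1 CPM in DPPIV+ FAPs, from 144 to 312 reads. DPPIV+ was the higher in each mouse, though the DPPIV+ library of mouse 1 was below the DPPIV- library of mouse 2. The log2 fold change was 0.53 (SE 0.15, adjusted p = 0.00140 in edgeR and 0.178 in DESeq2), with 0.46 in mouse 1 and 0.58 in mouse 2.

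In the mevalonate branch no gene passed the threshold. Hmgcs1, the synthase that makes HMG-CoA, had 46.6 and 61.2 CPM in DPPIV- and 46.0 and 67.9 CPM in DPPIV+ FAPs and a log2 fold change of 0.07 (SE 0.07). The kinases Mvk and Pmvk and the decarboxylase Mvd, which turn mevalonate into isopentenyl pyrophosphate, had log2 fold changes of 0.20, 0.06 and 0.20. Idi1, the isomerase of that product, had the largest value of the genes not called, 0.37, with a standard error of 0.26 on 43 to 70 reads a library. Fdps, which makes farnesyl pyrophosphate, had 0.22 (SE 0.11).

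In the 3 genes from squalene synthesis to lanosterol each value was smaller than its standard error. Fdft1, squalene synthase, had a log2 fold change of -0.10 (SE 0.13), Sqle, squalene epoxidase, had 0.07 (SE 0.12), and Lss, lanosterol synthase, had -0.14 (SE 0.18). Each of these 3 had opposite signs in the mice, with -0.37 and 0.10 for Fdft1, -0.10 and 0.20 for Sqle and 0.30 and -0.54 for Lss. Beyond lanosterol, the demethylase Cyp51 had 0.04 (SE 0.10) and the reductase Tm7sf2 had 0.13 (SE 0.28). The methyl oxidase Msmo1 had 0.14 (SE 0.10) and the dehydrogenase Nsdhl had 0.20 (SE 0.12). The isomerase Ebp and the desaturase Sc5d had -0.00 (SE 0.08) and 0.10 (SE 0.09). Dhcr7, the reductase of 7-dehydrocholesterol, had -0.24 (SE 0.14, adjusted p = 0.191 in edgeR).

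The larger difference in the synthesis genes was between the mice. Tested across both cell types in the same model, 9 of the 31 genes were higher in mouse 2 than in mouse 1, 3 were lower and 19 did not pass the threshold (the same edgeR fit, Benjamini-Hochberg adjusted). Of all genes tested, 4.47% were higher and 4.51% lower in mouse 2. Among the 17 enzymes 7 were higher and 0 lower. Of the 17, 10 had a higher level in mouse 2 in both cell types, against 3618 of the 11588 genes tested. Their median log2 difference was 0.36, against -0.00 over all genes. The count of 0 lower enzymes in mouse 2 stood beside 0 in DESeq2. DESeq2 called 4 members higher in mouse 2, Hmgcs1, Sqle, Cyp51 and Insig1, beside 0.596% of all genes, and 1 lower, Abca1, beside 0.412%, over the 10914 genes for which it gave an adjusted p. It gave none for Idi1 and Tm7sf2. These are differences between 2 animals. The labels give neither sex nor sort day for them, so that differences of that kind cannot be told apart from the animal. Each side of the contrast is 1 animal, and its libraries of both cell types stand in as replicates. The p-values between the mice therefore do not measure the spread between animals.

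Sequences before the start sites are shown for 4 of the genes higher in mouse 2. These are the genes with a motif in a stretch free of annotated exons. Cyp51 and Msmo1, also higher in mouse 2, held a motif too but did not meet this rule and are not shown. The motifs searched on both strands in the 250 bases before each start were the core TCACNCCAC of the sterol regulatory element, to which SREBP2 binds, and the box CCAAT of the factor NF-Y, a partner of SREBP2 at such promoters. The sequences are those of RefSeq on GRCm38.p6, 5′ to 3′ on the strand of the gene, with the motifs in capitals (ATTGG is CCAAT on the other strand). The stretch of Hmgcs1 is chr13:119690101-119690325 on the plus strand, that of Hsd17b7 is chr1:169969259-169969385 on the minus strand, that of Insig1 is chr5:28071181-28071215 on the plus strand and that of Srebf2 is chr15:82147119-82147153 on the plus strand.
Hmgcs1: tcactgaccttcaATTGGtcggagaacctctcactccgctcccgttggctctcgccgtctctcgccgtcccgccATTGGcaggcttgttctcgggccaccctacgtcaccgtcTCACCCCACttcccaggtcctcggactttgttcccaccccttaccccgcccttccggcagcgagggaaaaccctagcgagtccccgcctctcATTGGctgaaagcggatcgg
Hsd17b7: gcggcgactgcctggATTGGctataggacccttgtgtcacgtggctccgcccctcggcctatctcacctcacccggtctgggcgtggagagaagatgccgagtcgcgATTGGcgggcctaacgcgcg
Insig1: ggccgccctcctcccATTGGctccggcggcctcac
Srebf2: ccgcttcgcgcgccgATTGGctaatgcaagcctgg
Hmgcs1 held 3 NF-Y boxes and 1 sterol core in its 250 bases, with the first base of the core at -137, and Hsd17b7 held 3 boxes, of which 2 are in the stretch shown. The table of promoters held 25 of the 31 genes. An NF-Y box was found in 19 of these 25 genes (76.0%), against 37.5% of the 27025 genes of the table and 33.8% of its 32851 promoters. It was in 14 of 14 synthesis enzymes and in 5 of 11 of the other members, in 6 of 11 of the genes called between the cell types, and in 6 of the 6 genes higher in mouse 2 that had a promoter there, the table holding none for Fdft1, Sqle and Fdps. The sterol core was in 1 of 25 (4.0%), Hmgcs1, against 1.22% of genes and 1.05% of promoters. These are matches of letters within a fixed window. All 14 enzymes held the box, those not called between the mice included. The count of 6 of 6 therefore cannot set apart the genes higher in mouse 2. The genes of the background were not limited to those expressed in FAPs, as the members were.

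Step by step along the pathway, the higher level of mouse 2 was seen both early and late. Hmgcs1 (ENSMUSG00000093930.2, chromosome 13 from 119690379 to 119708260) had 46.6 CPM in mouse 1 and 61.2 CPM in mouse 2 in DPPIV- FAPs, and 46.0 and 67.9 CPM in DPPIV+ FAPs. Both libraries of mouse 2 were above both of mouse 1, and the log2 difference was 0.48 (SE 0.07, adjusted p = 1.94e-09 in edgeR and 0.0494 in DESeq2). Fdps had 13.2 and 19.5 CPM in DPPIV- and 14.1 and 24.4 CPM in DPPIV+ FAPs, a log2 difference of 0.68 (SE 0.12, adjusted p = 3.28e-07 in edgeR and 0.0939 in DESeq2).

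The log2 differences were greatest in the enzymes that make squalene and oxidise it and in the later enzyme Hsd17b7 (0.80, given below). Fdft1 had 11.04 CPM in mouse 1 and 16.8 CPM in mouse 2 in DPPIV- FAPs, and 8.55 and 18.05 CPM in DPPIV+ cells. Its log2 difference was 0.83 (SE 0.13, adjusted p = 4.62e-08 in edgeR and 0.0535 in DESeq2), with 0.61 in DPPIV- and 1.08 in DPPIV+ FAPs. Sqle, often the slow step of the later pathway, had 13.3 and 20.96 CPM in DPPIV- and 12.4 and 24.0 CPM in DPPIV+ FAPs. The log2 difference of Sqle was 0.80 (SE 0.12, adjusted p = 8.63e-10 in edgeR and 0.0216 in DESeq2), with 0.65 and 0.95. In both genes the cell types of a mouse lay closer to each other than to the other mouse. Lss had 5.93 and 9.76 CPM in DPPIV- but 7.28 and 6.69 CPM in DPPIV+ FAPs and did not pass the threshold.

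After lanosterol, Cyp51, Msmo1 and Hsd17b7 were higher in mouse 2. Cyp51 had 20.8 and 29.4 CPM in DPPIV- and 18.9 and 33.5 CPM in DPPIV+ FAPs, a log2 difference of 0.66 (SE 0.10, adjusted p = 9.18e-10 in edgeR and 0.0355 in DESeq2). Msmo1 had 17.7 and 23.5 CPM in DPPIV- and 17.7 and 28.0 CPM in DPPIV+ FAPs, a log2 difference of 0.53 (SE 0.10, adjusted p = 1.42e-05 in edgeR and 0.267 in DESeq2). In both, each library of mouse 2 was above each of mouse 1. Hsd17b7 had a log2 difference of 0.80 (SE 0.15, adjusted p = 4.22e-06 in edgeR, not called in DESeq2), with 0.73 in DPPIV- and 0.85 in DPPIV+ FAPs, and was thus called in both contrasts. Nsdhl, Ebp, Sc5d and Dhcr7 did not pass, with log2 differences of 0.05, 0.13, -0.07 and 0.36. Mvk, Pmvk, Mvd and Idi1 did not pass either, and were higher in mouse 2 in DPPIV+ FAPs by 0.31 to 0.68 on the log2 scale and between -0.21 and 0.15 in DPPIV- FAPs.

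Of the sensing genes, Insig1 was 0.46 higher on the log2 scale in mouse 2 (SE 0.07, adjusted p = 2.18e-09 in edgeR and 0.0469 in DESeq2), with 0.38 in DPPIV- and 0.54 in DPPIV+ FAPs. Srebf2 was 0.19 higher (SE 0.07, adjusted p = 0.0468 in edgeR), with 0.12 and 0.26. This call was lost with RLE normalization, at an adjusted p of 0.0777 in edgeR. Scap had 0.11 and did not pass. Abca1 was lower in mouse 2, with a log2 difference of -0.38 (SE 0.07, adjusted p = 1.09e-06 in edgeR and 0.0309 in DESeq2), -0.41 in DPPIV- and -0.35 in DPPIV+ FAPs. Mylip was also lower, at -0.22 (SE 0.07, adjusted p = 0.0209 in edgeR), with -0.18 and -0.26. Apoe was lower too, at -0.27 (SE 0.07, adjusted p = 0.00138 in edgeR), but with -0.46 in DPPIV- and -0.05 in DPPIV+ FAPs. For Srebf2, Mylip and Apoe DESeq2 gave no call.

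**Figure D3:**
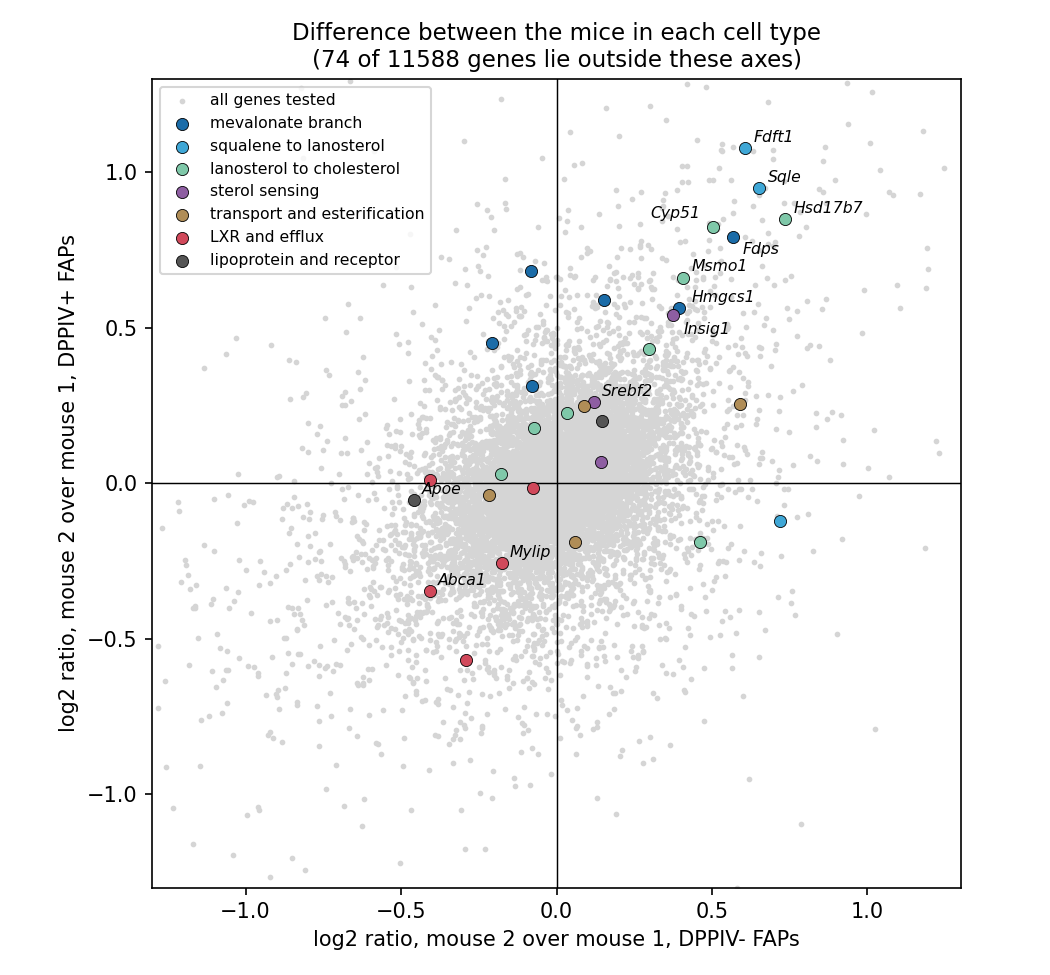
Log2 ratio of mouse 2 over mouse 1 in DPPIV- FAPs (horizontal axis) and in DPPIV+ FAPs (vertical axis), for all genes tested in grey and the 31 genes in the colours of their roles, with the 12 past the threshold named. The 7 named enzymes and Insig1 lie to the upper right, Abca1 and Mylip to the lower left, and 74 genes lie outside the axes.

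Levels were also summed by stage over the same genes and libraries, so that the sums are not separate evidence. The 3 genes from squalene to lanosterol summed to 30.3 and 28.3 CPM in the DPPIV- and DPPIV+ FAPs of mouse 1 and to 47.5 and 48.8 CPM in those of mouse 2. The 6 genes of the mevalonate branch summed to 85.8 and 84.9 CPM in mouse 1 and to 106 and 126 CPM in mouse 2. The 8 genes from lanosterol to cholesterol summed to 144 and 142 CPM in mouse 1 and to 163 and 186 CPM in mouse 2. At each stage both libraries of mouse 2 were above both of mouse 1. Whether the difference between the mice was greater in DPPIV+ than in DPPIV- FAPs was not tested, since that term would leave no residual degree of freedom. The 5 LXR and efflux genes summed lower in mouse 2 within each cell type, with 330 and 391 CPM in mouse 1 and 270 and 333 CPM in mouse 2. Here the libraries of the mice overlapped. Of these 5 genes, Abca1 and Mylip alone passed the threshold between the mice in edgeR, and Abca1 alone in DESeq2.

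**Figure D4:**
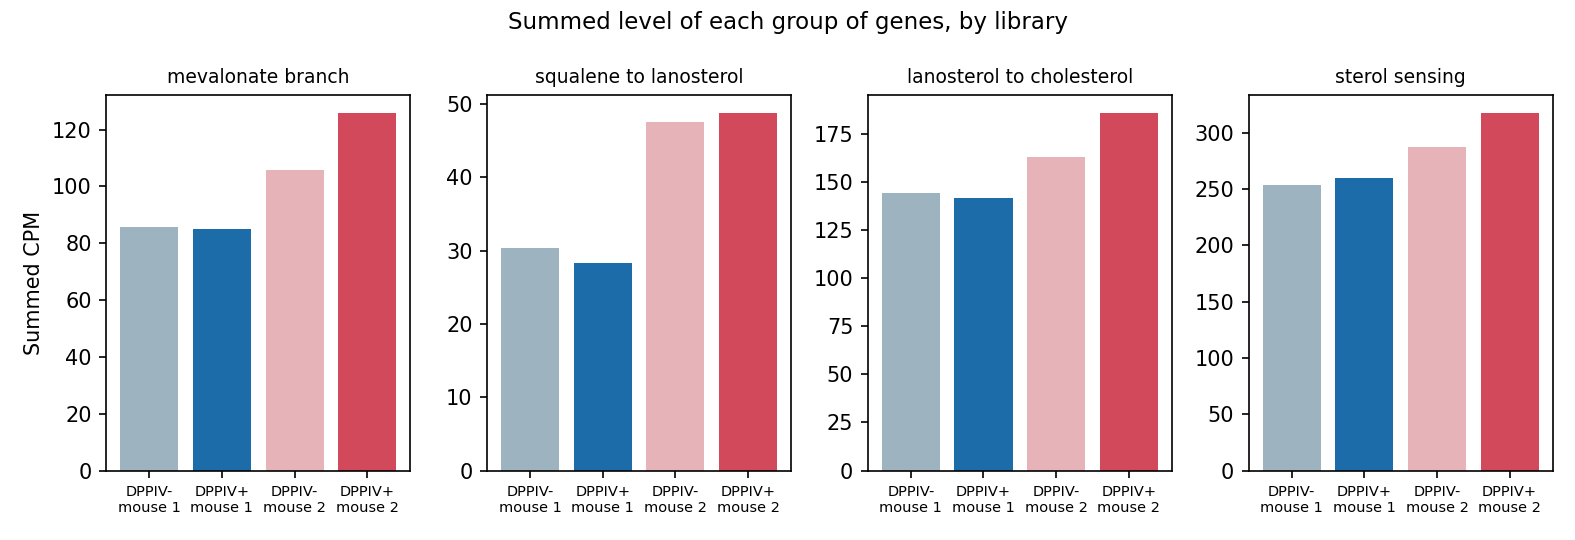
Summed CPM (vertical axes, from 0) of 3 stages of synthesis and of sterol sensing in each of the 4 libraries, 1 bar a library. From squalene to lanosterol the libraries of mouse 2 stand at 47.5 and 48.8 CPM and those of mouse 1 at 30.3 and 28.3 CPM, with the cell types of a mouse nearly level.

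Both contrasts together called 6 members in each of them, Hsd17b7, Srebf2, Insig1, Abca1, Mylip and Apoe, and 13 in neither. The contrasts share all 4 libraries and their values are given side by side only. The same counts over all genes were not made, so that no background share stands beside these.

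Other genes of the pathway, taken from lists of 70 symbols of which 61 were tested, gave 10 higher and 10 lower in DPPIV+ FAPs in edgeR, and 3 higher and 5 lower in DESeq2. Their share is near that of all genes. Of 7 further genes of synthesis 1 was higher, Pgrmc1, which encodes a heme-binding partner of sterol enzymes, with a log2 fold change of 0.22, and 0 were lower (0 also at an unadjusted p under 0.05). DESeq2 called 0 of these 7 in either direction. Of 8 genes of the isoprenoid branch 1 was lower, the prenyltransferase subunit Fnta at -0.19, and 0 were higher (1 at an unadjusted p under 0.05). DESeq2 called 0 of the 8 in either direction. Of 11 genes of the SREBP machinery 3 were higher, Erlin1 at 0.22, Erlin2 at 0.21 and Srebf1 at 0.19, and 0 lower (0 also at an unadjusted p under 0.05). DESeq2 called 0 of the 11 in either direction, with adjusted p values of 0.439, 0.364 and 0.338 for these 3 genes.

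The uptake list had larger changes, with 1 of 8 tested genes higher and 4 lower. Lpl, which encodes lipoprotein lipase, had 1314 and 1106 CPM in DPPIV- and 597 and 609 CPM in DPPIV+ FAPs, for a log2 fold change of -0.999 (SE 0.07). Vldlr, a receptor of apolipoprotein E, had 151 and 102 CPM in DPPIV- and 258 and 205 CPM in DPPIV+ FAPs, for a log2 fold change of 0.89 (SE 0.07). Scarb1, the receptor of high-density lipoprotein, had a log2 fold change of -0.74 (SE 0.17) and was not called by DESeq2.

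Of 16 carriers and ester genes 3 were higher and 2 lower, led by the caveolar gene Cav1 at -0.67 and followed by the oxysterol-binding proteins Osbpl6 at 0.36 and Osbpl9 at 0.32, of which DESeq2 did not call Osbpl6 (adjusted p = 0.368). All 3 oxysterol genes tested passed the threshold. Cyp7b1, a hydroxylase that clears oxysterols, had 3.20 and 5.21 CPM in DPPIV- and 1.06 and 1.81 CPM in DPPIV+ FAPs, for a log2 fold change of -1.55 (SE 0.27). Cyp27a1, which makes 27-hydroxycholesterol, had 0.36 (adjusted p = 0.0659 in DESeq2, not called there), and Hsd3b7, an enzyme of bile acid synthesis, had 0.35. Of 8 further LXR targets 0 were higher and 2 lower, Pltp, which encodes the phospholipid transfer protein, at -1.16 and Arl4c at -0.96, with 0 higher also at an unadjusted p under 0.05 and in DESeq2. Between the mice 4 of the 61 genes were higher in mouse 2 and 4 lower.

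Some markers of other cell types also differed in both contrasts, fewer of them in DESeq2 than in edgeR. Of 10 macrophage markers tested, 6 were lower in DPPIV+ FAPs in edgeR and 0 in DESeq2, and 0 were higher in edgeR, in DESeq2 or at an unadjusted p under 0.05. The list of 12 summed to 398 and 242 CPM in DPPIV- and to 258 and 224 CPM in DPPIV+ FAPs, mouse 1 first, and Timd4 had reads in no library but the DPPIV- FAPs of mouse 1. The log2 ratio of this sum was -0.63 in mouse 1 and -0.11 in mouse 2, while that of Apoe was -1.68 and -1.27 and that of Abcg1 was -1.43 and -1.71. Lyz2 made up much of the sum, with 125 and 121 CPM in the DPPIV- and DPPIV+ FAPs of mouse 2 and a log2 ratio of -0.04 there. Single markers differed in mouse 2, with log2 ratios of -1.76 for Lyve1, -0.59 for Mrc1, -0.37 for Adgre1 and -0.31 for C1qb, but -0.00 for Csf1r, 0.00 for Cd68 and 0.03 for C1qc. Apoe, Abcg1 and Nr1h3 are also expressed by macrophages.

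Of 6 mural cell markers 5 were lower in DPPIV+ FAPs (3 in DESeq2) and 0 higher (0 in DESeq2 and at an unadjusted p under 0.05). The list summed to 121 and 123 CPM in DPPIV- and to 51.2 and 63.5 CPM in DPPIV+ FAPs. The log2 ratio of this sum was -1.25 in mouse 1 and -0.95 in mouse 2. Much of it was Cspg4, with 63.4 and 76.0 CPM in DPPIV- and 22.7 and 35.9 CPM in DPPIV+ FAPs. The log2 fold changes of the single markers ran from -1.60 for Notch3 to -0.28 for Myh11. Of 5 endothelial markers 3 were lower (0 in DESeq2) and 1, Tek, higher (1 in DESeq2). Their sum was 242 and 182 CPM in DPPIV- and 502 and 457 CPM in DPPIV+ FAPs, most of it Tek. Of 4 Schwann cell markers tested 1 was higher (0 in DESeq2) and 1 lower (1 in DESeq2), with sums of 23.2 to 30.2 CPM. All 3 tenocyte markers were higher in DPPIV+ FAPs, with sums of 29.0 and 35.3 CPM in DPPIV- and 60.1 and 105 CPM in DPPIV+ FAPs. Between the mice, 6 of 10 macrophage and 5 of 5 endothelial markers were lower in mouse 2 in edgeR, and 3 of 3 tenocyte markers were higher. DESeq2 called 1 of these macrophage markers and 0 of the endothelial and tenocyte markers. In edgeR 1 of 6 mural markers was higher in mouse 2, and 0 of 4 Schwann cell markers differed. The part of macrophages and of mural, endothelial, Schwann and tendon cells in the differences of the members between the cell types, and of any of these cells in those between the mice, was not tested.

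**Figure D5:**
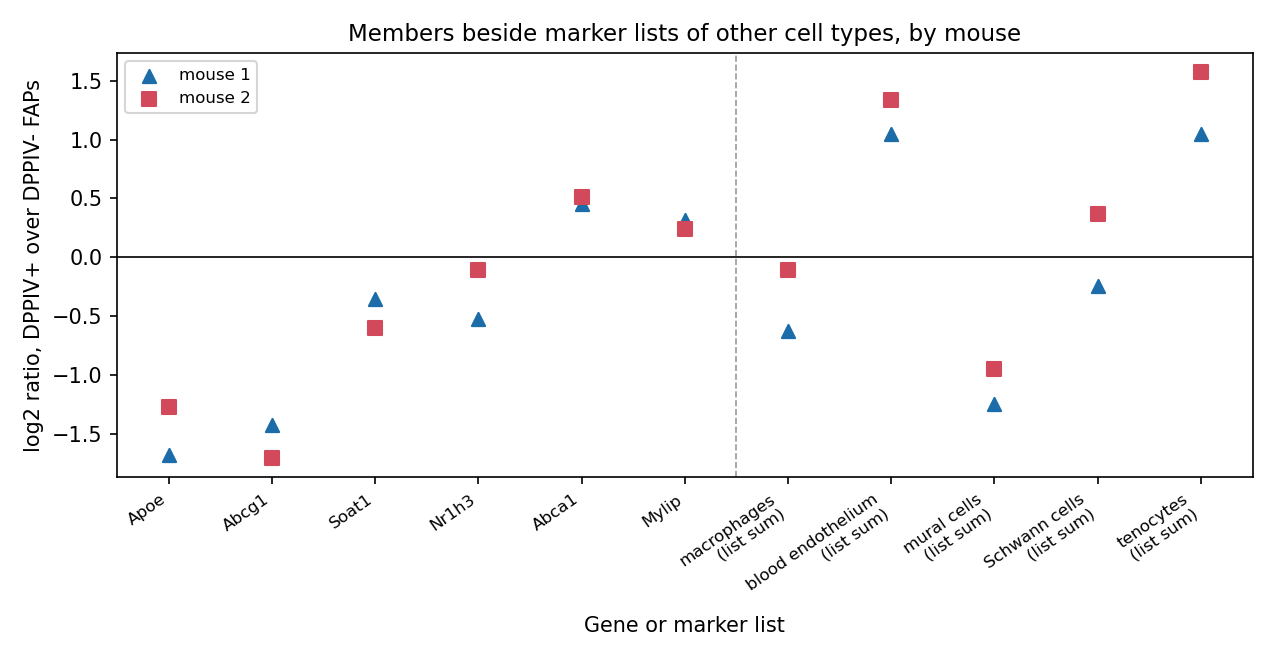
Log2 ratio of DPPIV+ over DPPIV- FAPs (vertical axis) in mouse 1 (triangles) and mouse 2 (squares), for 6 members on the left and the summed CPM of 5 marker lists on the right. Apoe and Abcg1 lie below -1.2 in both mice. The macrophage sum lies at -0.63 and -0.11 and the mural cell sum at -1.25 and -0.95. The endothelial and tenocyte sums are positive in both mice, and the Schwann cell sum has opposite signs.

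Some counts rest on shared sequence. Fdft1 shares 774 exon bases with Ctsb on the opposite strand, which had 24623 to 31685 reads beside 154 to 329 for Fdft1. Ctsb had a log2 difference between the mice of -0.11. Whether reads of Ctsb or of the other overlapping genes entered the counts of the members was not tested. Cyp51 shares 166 exon bases with Akap9 on the opposite strand, whose log2 difference between the mice was 0.08, and Tm7sf2 shares 532 with Vps51 on its own strand. Fdps shares 1124 exon bases with Gm43738 on its own strand, and Scap shares 985 with a gene on the opposite strand. Neither of these other genes is in the count table. Hmgcs1, Idi1, Lss, Npc1 and Nr1h3 also share exon bases with other genes. Whether the counting used strand is not given in the sources used here. Transcripts at least 97% alike over at least 100 bases exist for Fdft1, over 1249 bases of Gm6781, and for Fdps, over 1062 bases of Gm3571. Idi1 is matched over 684 bases of Gm13502, Insig1 over 189 bases of Gm37784 and Dhcr7 over up to 226 bases of several genes. Msmo1 is matched over 202 bases of Zmynd8, which had up to 1153 reads, and over fewer bases of other genes. These counts are uncertain to that extent.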

How the data were processed

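Per the labels and the study's methods, the paired-end reads were demultiplexed with bcl2fastq 2.20, aligned to mm10 with STAR and tallied per gene with RnaReadCounter. The authors deposited raw counts of reads per gene symbol, whole numbers with no normalization, in which 7548 symbols were at 0 in all 4 libraries. The sources name different stranded kits, and the annotation release is not given in the sources used here. The 31 genes and the other lists were chosen with earlier results of these data known.

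The test was limited to genes reaching 2 CPM in 2 or more libraries, libraries were scaled by TMM, and mouse and cell type were fitted with edgeR 4.0.16 (R 4.3.3, limma 3.58.1, glmQLFit and glmQLFTest without robust moderation, two-sided, Benjamini-Hochberg over 11588 genes, threshold 0.05). The fit leaves 1 residual degree of freedom a gene, so that each gene takes its spread from genes of like abundance, which makes p-values of abundant genes very small. The standard error (SE) is the log2 fold change over the square root of F. With 2 pairs, an exact permutation test cannot go below p = 0.5 and was not used. Both libraries of a mouse came from the same animal, so mouse was a block, as in the study. The differences between the mice correlated across genes between the cell types with r = 0.415. DESeq2 1.42.0 was the alternative test, and it gave no adjusted p for 674 genes between the mice. CPM uses TMM-scaled library sizes, and log2 ratios of single mice use a prior count of 0.125. Both tests were first run on simulated counts. Positions, exon lengths and overlaps are those of GENCODE M21 (GRCm38), and promoters are those of RefSeq. Every member is named, and of each other list at most 3 genes past the threshold, those of largest log2 fold change. Some genes of these lists are counted and not reported here by name.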

Additional observations from a re-analysis of the deposited data

How the results depend on the processing

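Of 31 members, 7 were higher and 5 lower in DPPIV+ FAPs, and these counts stayed at 7 and 5 with robust moderation, RLE normalization, no filter (16873 genes) and 2 CPM in at least 3 libraries (11194 genes). DESeq2 gave 1 higher and 2 lower, and the fit without the replicate block, which ignores the pairing by mouse, 1 higher (Nr1h2) and 3 lower (Apoe, Abcg1 and Soat1). Against a 1.5-fold change 0 were higher and 2 lower. Over all genes, 1837 higher and 1989 lower became 923 and 995 in DESeq2, 1001 and 1119 without the block, and 436 and 656 against a 1.5-fold change. Apoe and Abcg1 were called in all 6 alternatives that tested for any change. Of the 12 members different between the mice, DESeq2 called 5. The median log2 fold change of the members ranged from -0.02 to 0.20 with a mouse left out, which leaves no test. With a mouse left out, members not called also changed sign, among them Lss (0.30 without mouse 2), Pmvk (-0.28 without mouse 2), Tm7sf2 (-0.19 without mouse 1), Stard4 (-0.07 without mouse 1), and Mvd and Idi1 (both -0.03 without mouse 2), and 18 of 31 members had 1 sign in both mice. With both mice, values near 0 changed sign for Ebp (0.00619 without a filter), Npc1 (0.00220 without a filter) and Lrp1 (-0.000452 with 2 CPM in at least 3 libraries), none of them called. The cause of these changes was not tested. The alternatives for single members between the mice were chosen after seeing the data. Depth limited Tm7sf2 and Idi1 most, with 38 to 70 reads a library and standard errors of 0.28 and 0.26.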
